A study of Mus musculus with 6 samples.

Results

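Chaperonins are ring-shaped folding machines, and 10 genes encode the subunits described here: Tcp1, Cct2, Cct3, Cct4, Cct5, Cct6a, Cct7 and Cct8 for the cytosolic complex (TRiC, also called CCT), and Hspd1 and Hspe1 for the mitochondrial one. Their members on the array were every probe set, a group of short oligonucleotides read out as 1 value, that the array annotation assigns to exactly 1 of these symbols. This gave 28 probe sets, 25 for the cytosolic subunits and 3 for the mitochondrial pair, out of 45037 probe sets that are not array controls, and 10 genes out of 18193 with at least 1 such probe set. The RNA came from mouse tracheal epithelium that was regrowing after sulphur dioxide injury (48 hpi, hours post-injury) or was uninjured (control). The 48 hpi group held 3 pools of 4 tracheas from male C57Bl/6 mice that had breathed 500 ppm SO2 for 4 h and were left for 48 h, and the control group held 3 pools of 4 tracheas from male C57Bl/6 mice without SO2. In both groups the epithelium was peeled off with proteases and CD45+ leukocytes were depleted, so the RNA is a mixture of whatever epithelial cells each pool then held. Each pool gave 1 array.

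The cytosolic chaperonin stacks rings of 8 different but related subunits around a cavity in which newly made proteins fold with the use of ATP. Actin and tubulin are its best known clients and cannot reach their native state without it, and several cell cycle regulators depend on it too. Hspd1 encodes Hsp60, the ring protein of the mitochondrial matrix, and Hspe1 encodes Hsp10, the lid that closes the Hsp60 ring while an imported protein folds inside. The Hspd1 and Hspe1 genes lie head to head and share a promoter region between them. In the airway, basal cells proliferate and spread after surface cells are lost, and later replace the ciliated and secretory cells.

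The regions before the start sites of the member genes were read from RefSeq (mouse build GRCm38.p6) as windows from 250 bases before to 50 bases after each start. There were 12 windows for 9 of the 10 genes, with pairs of windows for Cct2, Cct5 and Hspd1, and Cct4 was not analysed here. Each window was searched on both strands for the heat shock element (GAANNTTC or TTCNNGAA, the letters bound by heat shock factors), the E-box CACGTG (bound by Myc and related factors) and the CCAAT box. The 3 windows below are shown because they hold the shared promoter of the mitochondrial pair and, of the cytosolic subunits, 1 window with matches and 1 with none, Cct8 being the subunit with the largest change on the array. They are written 5′ to 3′ along the gene, and capitals mark the motif matches.
Hspe1: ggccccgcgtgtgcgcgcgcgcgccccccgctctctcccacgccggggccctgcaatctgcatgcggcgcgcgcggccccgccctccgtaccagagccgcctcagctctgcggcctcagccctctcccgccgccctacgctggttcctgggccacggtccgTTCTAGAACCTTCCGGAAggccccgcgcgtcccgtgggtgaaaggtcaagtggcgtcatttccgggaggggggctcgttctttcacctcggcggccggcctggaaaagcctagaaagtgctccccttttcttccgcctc
Cct6a: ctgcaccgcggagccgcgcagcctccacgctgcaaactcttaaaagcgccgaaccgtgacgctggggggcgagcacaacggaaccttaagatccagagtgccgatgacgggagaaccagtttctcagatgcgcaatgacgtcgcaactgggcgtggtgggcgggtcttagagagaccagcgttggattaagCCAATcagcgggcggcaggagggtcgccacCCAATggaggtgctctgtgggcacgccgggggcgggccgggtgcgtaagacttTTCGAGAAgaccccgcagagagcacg
Cct8: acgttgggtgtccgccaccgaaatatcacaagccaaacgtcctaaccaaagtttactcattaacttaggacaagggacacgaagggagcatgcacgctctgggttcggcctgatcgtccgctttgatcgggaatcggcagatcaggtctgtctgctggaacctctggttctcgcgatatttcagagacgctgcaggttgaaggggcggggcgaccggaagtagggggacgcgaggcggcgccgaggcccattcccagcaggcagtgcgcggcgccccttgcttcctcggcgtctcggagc
The Hspe1 window lies at chr1:55087898-55088197 on the plus strand, the Cct6a window at chr5:129787106-129787405 on the plus strand, and the Cct8 window at chr16:87495820-87496119 on the minus strand. The run ttctagaaccttccggaa, in capitals in the Hspe1 window, holds 3 overlapping heat shock element matches whose first bases sit at offsets −89, −84 and −79 from the Hspe1 start site. The 2 annotated Hspd1 starts are at 55088243 and 55087932 on the minus strand of chromosome 1. Read along Hspe1, they lie 95 bases after and 216 bases before the Hspe1 start at 55088148. The window of the first Hspd1 start shared 4 bases with the Hspe1 window. The window of the second Hspd1 start shared 285 bases with the Hspe1 window, so the same run is counted for both genes and stands at offsets −144, −139 and −134 from that start. A window with 3 or more such matches was found in 84 of 32851 mouse windows (0.256%).

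At least 1 heat shock element match stood in the windows of 5 genes (Cct2, Cct5, Cct6a, Hspd1 and Hspe1), beside 15.1% of all 32851 windows. The Cct6a match, TTCGAGAA, began at offset 25, inside the transcribed part, next to CCAAT boxes at −59 and −29. A CCAAT box stood in the windows of 5 genes (Tcp1, Cct3, Cct6a, Cct7 and Hspd1), beside 37.4% of all windows, and the E-box in 1 gene, Hspd1, beside 7.15%. Both of these Hspd1 matches stood in the window of its first start, outside the bases shared with Hspe1. Some genes have several windows, which gives them more chances of a match. A match describes letters in a window and shows no binding.

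The array values are on the log2 scale after RMA, the authors' normalization, so a difference of 1 means a doubling of signal. A change is the 48 hpi mean minus the control mean, its standard error (SE), 95% confidence interval and adjusted p come from limma fitted to all 45037 probe sets with Benjamini-Hochberg adjustment, and a probe set was called at an adjusted p below 0.05. Each gene was read on its brightest probe set, the one with the highest mean over the 6 arrays. Signal levels are never set against each other between probe sets, because probes differ in how well they bind. A probe set counted as above background where its group mean passed 4.81 at 48 hpi or 4.93 in control, the 95th percentile of 81 probe sets for odorant and related receptors in that group. Nothing in the labels says that pools came from separate exposures, so the tests measure the spread between pools.

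The whole table moved in both directions. At 48 hpi, 6512 probe sets were called higher and 6267 lower than in control. With all arrays set to a common median the split was 8068 higher and 4522 lower. With equal hybridization controls, RNAs that are spiked in at fixed amounts, it was 8064 and 1480. The latter scaling raises every change by 0.34, against 0.08 for the common median, and also moves each array by its own spike-in level. Why the splits differ was not tested. The hybridization controls averaged 11.68 in control pool 1, against 11.15 and 11.23 in control pools 2 and 3 and 10.90 to 11.14 at 48 hpi. Results under that scaling therefore depend in part on 1 control array. Epithelial markers were high in both groups (Epcam 11.32 at 48 hpi and 11.04 in control, Krt8 12.74 at 48 hpi and 12.31 in control, Krt5 11.90 at 48 hpi and 11.21 in control), and Ptprc, which encodes CD45, was within background at 48 hpi (2.83) and in control (3.04). Of the cycling markers 7 of 7 were called higher, with pool means of 10.56 to 10.88 at 48 hpi and 7.59 to 7.67 in control. The ciliated list was lower in 7 of 8 genes (5.61 to 6.54 at 48 hpi, 6.78 to 7.74 in control) and the secretory list in 5 of 7 (11.97 to 13.08 at 48 hpi, 13.72 to 13.78 in control), numbers that were 5 and 3 with equal hybridization controls. The defining marker of each list was not called. Foxj1 read 7.80 at 48 hpi and 7.84 in control (limma adjusted p = 0.960). Scgb1a1 read 13.98 at 48 hpi and 14.49 in control (limma adjusted p = 0.0602). Dnah5, counted among the lower ciliated genes, was within background in both groups. The basal list had 2 of 6 genes higher and 2 lower (10.28 to 10.40 at 48 hpi, 9.77 to 9.95 in control). Krt14 (3.18) and Krt5 (0.69) were higher, Ngfr (−0.66) and Pdpn (−0.35) were lower, and the list's median change was −0.09. With equal hybridization controls 2 basal genes were higher and 0 lower. Leukocyte markers were called lower in 1 of 8 genes (4.58 to 4.62 at 48 hpi, 4.69 to 4.71 in control), fibroblast markers in 1 of 6 (4.95 to 5.86 at 48 hpi, 5.10 to 5.21 in control) and endothelial markers in 0 of 4 (3.55 to 3.71 at 48 hpi, 3.65 to 3.74 in control), with none called higher, although 4 fibroblast markers were with equal hybridization controls. The part of these marker shifts in the chaperonin changes was not tested, and in bulk RNA fewer cells of a type and less RNA per cell cannot be told apart.

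All 10 chaperonin genes were called higher at 48 hpi on their brightest probe set. Over all genes, 18.4% were called higher and 16.1% lower, and of the 12280 genes above background in a group 26.3% were called higher. The change ranged between 0.54 and 1.46 among the 8 cytosolic subunits, with a median of 0.97, and was 1.02 for Hspe1 and 1.52 for Hspd1. The median over all genes was −0.02 and the 90th percentile 0.66, or 0.85 among genes above background. In each of the 10 genes the lowest 48 hpi pool lay above the highest control pool, which was so for 25.4% of all genes, and the exact two-sided permutation test over pools then gives p = 0.1, the smallest that 3 pools against 3 allow. In all 19 alternative processings tried, the calls for Tcp1, Cct2, Cct4, Cct5, Cct6a, Cct7, Hspd1 and Hspe1 stayed wherever the gene kept a probe set. Cct3 and Cct8 lost theirs only where probe sets that can bind further transcripts were left out, as described with the individual probe sets.

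Cct8, the theta subunit, changed most among the cytosolic genes. It read 10.35, 10.37 and 10.71 in the 48 hpi pools and 9.03, 8.97 and 9.06 in the control pools, that is 10.48 ± 0.21 at 48 hpi and 9.02 ± 0.04 in control (SD, n = 3 each). The third 48 hpi pool was the highest and the control pools lay close together. The change was 1.46 (SE 0.12, interval 1.19 to 1.73), a 2.75-fold difference with a limma adjusted p of 0.000127.

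Tcp1, the founding alpha subunit, and Cct6a, the zeta subunit, followed with a change of 1.10 each. Tcp1 read 10.66, 10.61 and 10.82 at 48 hpi and 9.59, 9.67 and 9.52 in control, a 2.14-fold difference (SE 0.10, limma adjusted p = 0.00019). Cct6a read 11.81, 11.79 and 11.97 at 48 hpi and 10.77, 10.75 and 10.75 in control, also 2.14-fold (SE 0.09, limma adjusted p = 0.000127). In both genes the pools of a group differed by far less than the groups did.

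Cct7, the eta subunit, read 11.06, 11.16 and 11.43 at 48 hpi and 10.12, 10.16 and 10.29 in control, a change of 1.02 (SE 0.12, 2.03-fold, limma adjusted p = 0.000604). Cct5, the epsilon subunit, read 11.02, 10.99 and 11.14 at 48 hpi and 10.12, 10.17 and 10.10 in control, a change of 0.92 (SE 0.09, 1.89-fold, limma adjusted p = 0.000267). These 2 subunits stood in the middle of the ring's 8 changes, and their confidence intervals (0.75 to 1.29 and 0.72 to 1.12) overlapped those of Tcp1 and Cct6a.

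On the brightest probe sets, the smallest changes were those of the gamma, beta and delta subunits. Other probe sets above background gave larger changes, up to 1.09 for Cct3 and 0.94 for Cct2, so this order depends on the probe set read. Cct3 read 11.38, 11.45 and 11.72 at 48 hpi and 10.61, 10.75 and 10.84 in control, a change of 0.78 (SE 0.12, 1.72-fold, limma adjusted p = 0.00193). Cct2 read 11.30, 11.35 and 11.41 at 48 hpi and 10.54, 10.66 and 10.67 in control, a change of 0.73 (SE 0.09, 1.66-fold, limma adjusted p = 0.000689). Cct4 read 11.30, 11.32 and 11.39 at 48 hpi and 10.80, 10.82 and 10.78 in control, a change of 0.54 (SE 0.08, interval 0.35 to 0.73, 1.45-fold, limma adjusted p = 0.002). The Cct4 interval ended below those of Cct8, Tcp1, Cct6a and Cct7, although it belongs to 1 of several Cct4 probe sets that gave different sizes. Neighbours in the order of the 8 subunits had overlapping intervals.

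**Figure D1:**
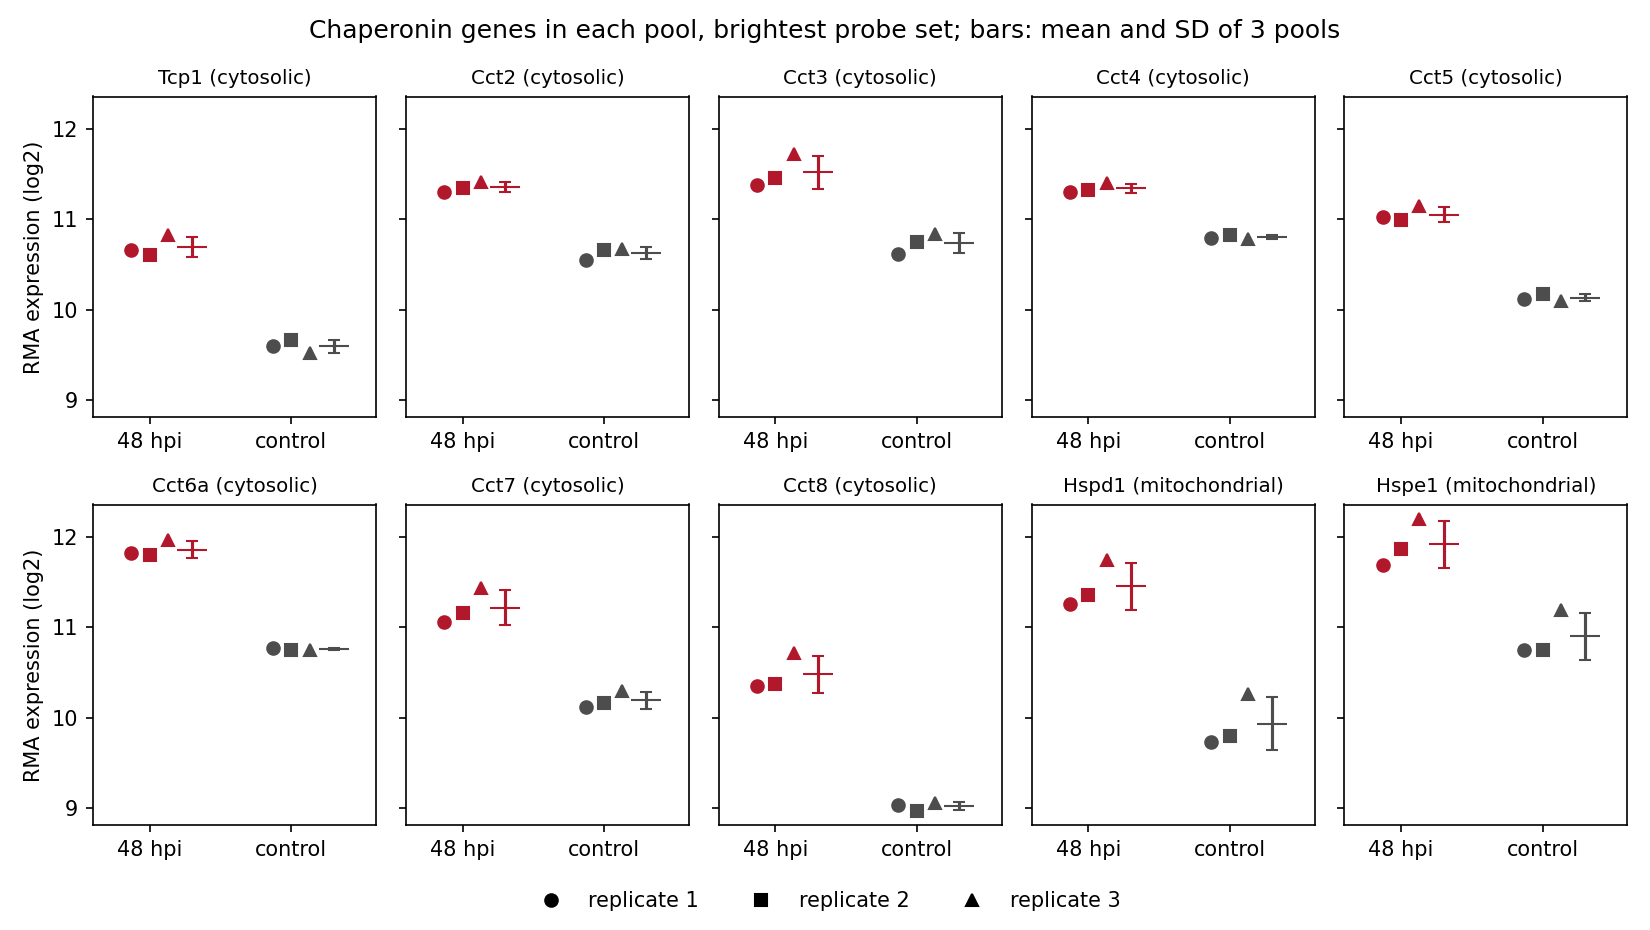
Log2 RMA signal of the brightest probe set of each of the 10 chaperonin genes, with 1 point per pool, 48 hpi left of control, and lines at the group means. In every gene the 3 pools at 48 hpi lie above the 3 control pools, and Hspd1 and Hspe1 show the widest scatter within both groups.

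Over all 28 probe sets of the 10 genes, 23 were called higher at 48 hpi, 0 lower and 5 in neither direction, where 14.5% of all probe sets were called higher and 13.9% lower. Groups did not overlap in 24 of the 28, 23 of them with the 48 hpi pools higher, whereas 21.0% of all probe sets had groups apart with 48 hpi higher and 43.4% in either direction. Of the 23 that were above background in both groups 22 were called higher, and 5 lay within background in both groups. With equal hybridization controls, a scaling that raises every change by 0.34 and so favours higher calls, the same 23 were called higher.

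Of the cytosolic subunits with several probe sets, Cct2, Cct6a and Cct7 had near values on all of theirs. The 3 for Cct2 gave changes of 0.73, 0.78 and 0.94, the 2 for Cct6a 1.09 and 1.10, and the 2 for Cct7 1.02 and 1.11. Tcp1, Cct5 and Hspd1 had 1 probe set each. For Cct3, 5 of 7 probe sets were called higher, between 0.54 and 1.09, and the other 2 were within background, at 4.67 and 4.16 at 48 hpi and 4.72 and 3.98 in control. For Cct8 the second probe set was within background too (2.68 at 48 hpi and 2.54 in control).

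Cct4 also varied among probe sets above background. Of 7, those called higher gave 0.78, 0.67, 0.54, 0.42 and 0.37, the last of them within background in both groups (4.15 at 48 hpi and 3.78 in control). A further Cct4 probe set, above background, ran the other way: it read 5.94, 6.00 and 6.13 at 48 hpi and 6.14, 6.38 and 6.34 in control, so its groups did not overlap. Its change of −0.26 (SE 0.10, interval −0.50 to −0.03) did not pass the limma threshold (adjusted p = 0.0946), and was 0.08 with equal hybridization controls. The remaining one, within background, gave −0.02.

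Affymetrix marks probe sets that can bind several transcripts of a gene, a gene family or unrelated sequences by the suffixes a, s and x. All 16 member probe sets with such a suffix were called higher. Of the 12 without, 7 were called higher, and these covered Tcp1 (1.10), Cct4 (0.78), Cct5 (0.92), Cct6a (1.09), Cct7 (1.02), Hspd1 (1.52) and Hspe1 (1.21). Of the other 5, 4 were within background and 1 was the Cct4 probe set with the lower 48 hpi values. Cct2 had no probe set without a suffix, and those of Cct3 (−0.05 and 0.18) and Cct8 (0.15) were all within background, so the changes of these 3 subunits rest on probe sets that may bind further transcripts.

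**Figure D2:**
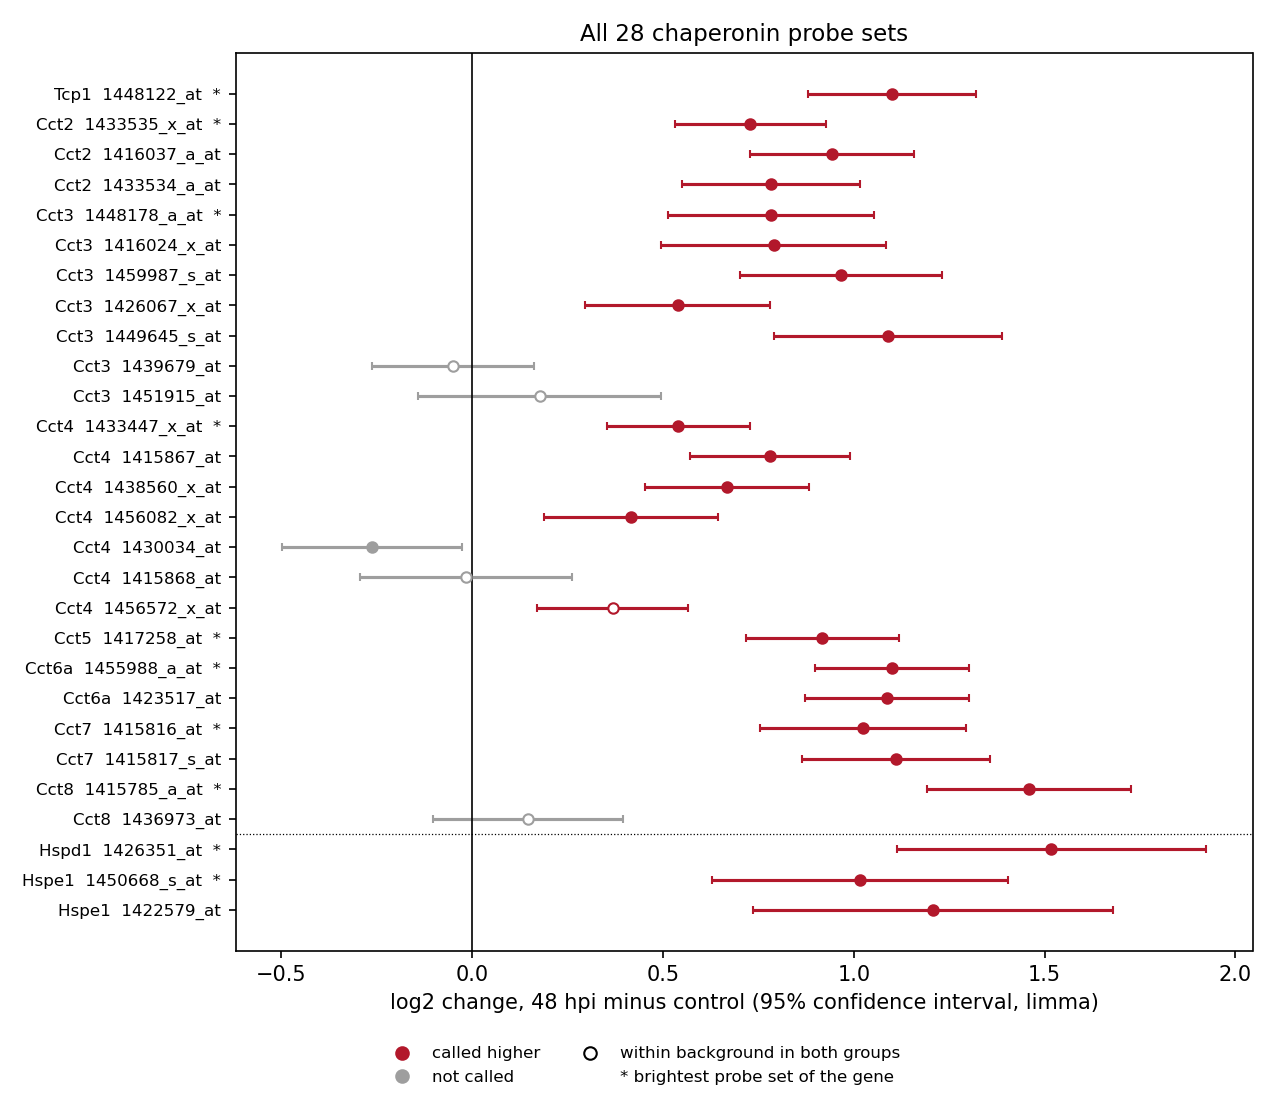
Change in log2 signal, 48 hpi minus control, of each of the 28 member probe sets by gene, with its 95% confidence interval from limma. Colour marks the call, open points lie within background in both groups, and an asterisk marks the brightest probe set of a gene. The probe sets of a gene lie close together for Cct2, Cct6a and Cct7 and apart for Cct3, Cct4 and Cct8, and those near or below 0 are within background apart from 1 of Cct4.

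Hspd1 and Hspe1, the Hsp60 ring and its Hsp10 lid, were higher together. Hspd1 read 11.26, 11.35 and 11.74 at 48 hpi and 9.73, 9.80 and 10.26 in control (11.45 ± 0.26 at 48 hpi and 9.93 ± 0.29 in control, SD, n = 3 each), a change of 1.52 (SE 0.18, interval 1.11 to 1.92, 2.86-fold, limma adjusted p = 0.000642). Hspe1 read 11.69, 11.86 and 12.19 at 48 hpi and 10.75, 10.75 and 11.19 in control (11.91 ± 0.26 at 48 hpi and 10.90 ± 0.26 in control), a change of 1.02 (SE 0.17, interval 0.63 to 1.40, 2.02-fold, limma adjusted p = 0.00303). Its other probe set, without a suffix, read 9.30, 9.51 and 9.99 at 48 hpi and 8.28, 8.17 and 8.74 in control, a change of 1.21 (SE 0.20, 2.31-fold, limma adjusted p = 0.0034). In all 3 probe sets the pool numbered 3 was the highest of its group, at 48 hpi and in control alike.

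The ring gene changed more than the lid gene on the brightest probe sets. With each gene set to 0 at its control mean, Hspd1 minus Hspe1 was 0.54, 0.45 and 0.51 in the 48 hpi pools and −0.05, 0.02 and 0.03 in the control pools, so the groups did not overlap, and the 48 hpi mean was 0.50 ± 0.04 (SD, n = 3). The difference is a description without a test. It was smaller against the other Hspe1 probe set, whose change of 1.21 lies nearer to 1.52.

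The cytosolic and the mitochondrial complex were compared as changes over the control mean, averaged over the genes of each in every pool. The 8 cytosolic subunits averaged 0.88, 0.90 and 1.09 at 48 hpi and −0.03, 0.01 and 0.02 in control. The mitochondrial pair averaged 1.06, 1.19 and 1.55 at 48 hpi and −0.18, −0.14 and 0.31 in control. Both complexes were thus higher in all 48 hpi pools, while control pools spread more for the pair (SD 0.27) than for the subunits (SD 0.03).

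Whether the pair changed more than the subunits was not settled by these pools. The pair minus the subunits was 0.18, 0.29 and 0.46 at 48 hpi (0.31 ± 0.14) and −0.14, −0.15 and 0.29 in control (SD 0.26), so the control pool numbered 3 reached into the 48 hpi range and the groups overlapped. Between pools of the same number, the 48 hpi value was the higher each time, but the labels do not say that a number marks a pair. The median change of the subunits minus the mean change of the pair was −0.30, and leaving out 1 pool at a time moved it between −0.44, without control pool 3, and −0.22, without control pool 2. Individual genes did not sort by compartment either, since Cct8 with 1.46 stood beside Hspd1 with 1.52, and Cct7 with 1.02 beside Hspe1 with 1.02.

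**Figure D3:**
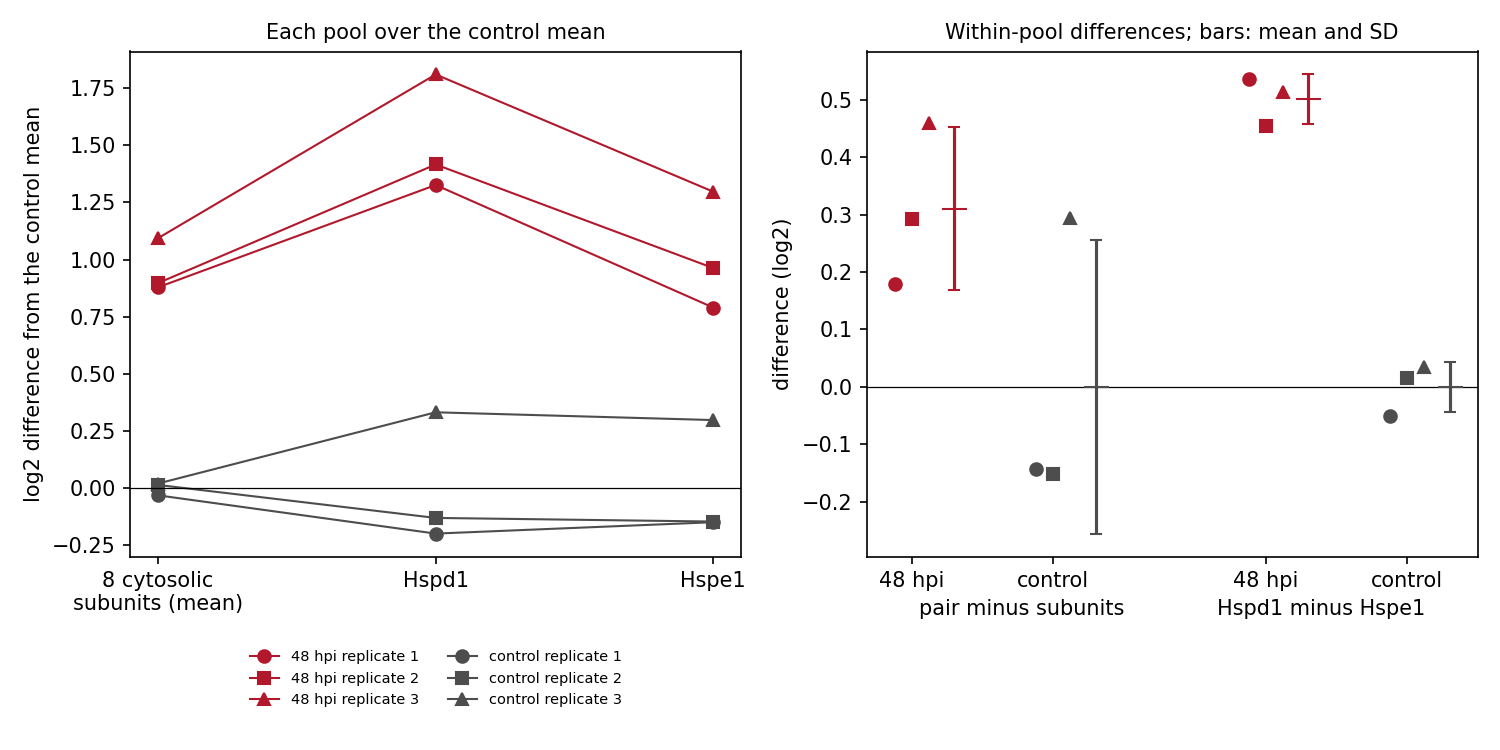
Left, change over the control mean on the log2 scale for the mean of the 8 cytosolic subunits and for Hspd1 and Hspe1. Each pool is 1 line, coloured by group. Right, the pair minus the subunits and Hspd1 minus Hspe1 in each pool, with 48 hpi left of control. The subunits average 0.88 to 1.09 at 48 hpi and −0.03 to 0.02 in control. The pool numbered 3 is the highest of its group for the subunit mean and for both mitochondrial genes, with a wider margin for the mitochondrial genes.

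Genes for proteins that work with the cytosolic ring moved less uniformly. Of 13 partners and assembly factors, 5 were called higher, 1 lower and 7 in neither direction (median change 0.23), beside 18.4% and 16.1% of all genes. Of the 7 not called, 4 were within background in both groups (Pdcl2, Cct6b, Bbs10 and Bbs12). The called genes were all among the 9 above background in both groups, beside 26.3% higher and 21.8% lower among genes above background. Prefoldin hands nascent actin and tubulin to the ring: of its 6 subunit genes 4 were higher, Pfdn4 (0.92, SE 0.14), Vbp1 (0.71, SE 0.10), Pfdn6 (0.61, SE 0.13) and Pfdn1 (0.52, SE 0.10), Pfdn2 was not called (0.32, adjusted p = 0.0718) and Pfdn5 was lower (−0.67, SE 0.10, 10.53 at 48 hpi and 11.20 in control), a call that was lost with equal hybridization controls (−0.32). Pfdn1, Pfdn2 and Pfdn6 are named to complete the complex, after their values were seen. Mkks, a chaperonin-like protein of the primary cilium, was higher on its brightest probe set (0.70, SE 0.12) and 0.11 on another. Cct6b, the testis form of the zeta subunit, was within background (3.58 at 48 hpi and 3.82 in control) and was not called.

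Of 16 genes for mitochondrial chaperones, protein import motor parts and proteases other than the pair, 10 were called higher, 1 lower and 5 in neither direction. Their median change was 0.51. All 16 were above background, where 26.3% of genes were called higher and 21.8% lower. Hspa9, the mitochondrial Hsp70 that pulls proteins in and passes them to Hsp60, read 10.13, 10.12 and 10.47 at 48 hpi and 9.04, 8.89 and 9.08 in control, a change of 1.24 (SE 0.12, limma adjusted p = 0.000293), and 3 of its 5 probe sets were called higher (lowest −0.24). Trap1, the mitochondrial Hsp90 (0.76, SE 0.10), Afg3l2, a subunit of an inner membrane protease (0.75, SE 0.10), and Lonp1, a matrix protease (0.64, SE 0.10), were higher too, with 2 of 2, 2 of 3 and 1 of 1 probe sets called. Clpp, the proteolytic chamber of the ClpXP protease, had a change of 0.24 that did not pass (adjusted p = 0.226), although another probe set of it did (0.44, adjusted p = 0.0278). Hscb, a co-chaperone of iron-sulphur cluster assembly, was lower (−0.51, SE 0.12), a call lost with equal hybridization controls (−0.17).

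The cytosolic heat shock genes went both ways: of 31, 12 were called higher, 8 lower and 11 in neither direction, with a median change of 0.13, beside 26.3% higher and 21.8% lower among genes above background, as 29 of the 31 were in both groups. The higher ones included Hspa4, a nucleotide exchange factor of Hsp70 (1.33, SE 0.12), and Hspa14 (1.26, SE 0.16) with Dnajc2 (1.17, SE 0.13), which form a chaperone pair at the ribosome. Not every probe set of these genes was called: 1 of 4 was called higher for Hspa4 (lowest −0.26), 2 of 3 for Hspa14 (lowest 0.36) and 3 of 4 for Dnajc2 (lowest −0.03). Lower on the log2 scale were Dnaja4, a co-chaperone of Hsp70 (−1.79, SE 0.20), Hspa2, an Hsp70 (−1.39, SE 0.20), and Hspb1, the small heat shock protein Hsp27 (0.502-fold, 12.03 at 48 hpi and 13.02 in control). These 3 were called lower with equal hybridization controls as well, whereas the number of lower genes was then 4, and it was 5 without the 48 hpi pool numbered 3. Hspa8, the constitutive Hsp70, changed by 0.17 on its brightest probe set, which did not pass (adjusted p = 0.184), while 2 of its other 3 were called higher (0.34 and 0.55, limma adjusted p = 0.0438 and 0.0123). Hspa1a and Hspa1b, the classical stress-induced Hsp70 genes, were picked out after their values were seen: they were lower, at −0.91 (SE 0.26) and −0.54 (SE 0.15), and neither was called with equal hybridization controls or a common median. Hsf1 and Hsp90ab1 were not analysed here.

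Among the chief clients of the cytosolic ring, 18 tubulin and actin genes and tubulin cofactors gave 4 higher, 3 lower and 11 in neither direction (median 0.22). Over all genes 18.4% were higher and 16.1% lower. Among genes above background, as 17 of the 18 were in both groups, it was 26.3% and 21.8%. Tubb6 (2.98, SE 0.20), Tubb5 (1.48, SE 0.13) and Tubg1, the gamma-tubulin of centrosomes (1.38, SE 0.14), were higher, although a second Tubb6 probe set gave −0.06 and was not called. Tuba1a (−1.91, SE 0.18), Tubb2a (−0.87, SE 0.14) and Tubb2b (−0.76, SE 0.22) were lower, and of these Tuba1a alone was also called with equal hybridization controls. A second Tubb2a probe set gave 0.10 and was not called. Actb (0.14, adjusted p = 0.333) and Actg1 (0.23, adjusted p = 0.112) did not pass the limma threshold. Tubulin genes are near copies of each other, and the probe sets read for Tuba1a and Tubb2a carry the x and s suffix.

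Of 13 other clients, 7 were called higher, 2 lower and 4 in neither direction (median 0.45), all of them above background, where 26.3% of genes were higher and 21.8% lower. The mitotic kinase Plk1 (3.26, SE 0.14), Cdc20, which activates the anaphase-promoting complex (2.97, SE 0.13), and Wrap53, a telomerase component (1.12, SE 0.10, a second probe set 0.32 and not called), were higher. Plk1 and Cdc20 are mitotic genes and moved with the cycling markers, 7 of 7 of which were higher. Bbs2, part of a complex that serves the cilium, was lower (−0.93, SE 0.17), as was Stat3 (−0.33, SE 0.09), and on these probe sets neither was called with equal hybridization controls, under which that of Stat3 changed by 0.01. Of the 4 Stat3 probe sets 3 were called lower, and their changes ran between −1.61 and −0.22.

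**Figure D4:**
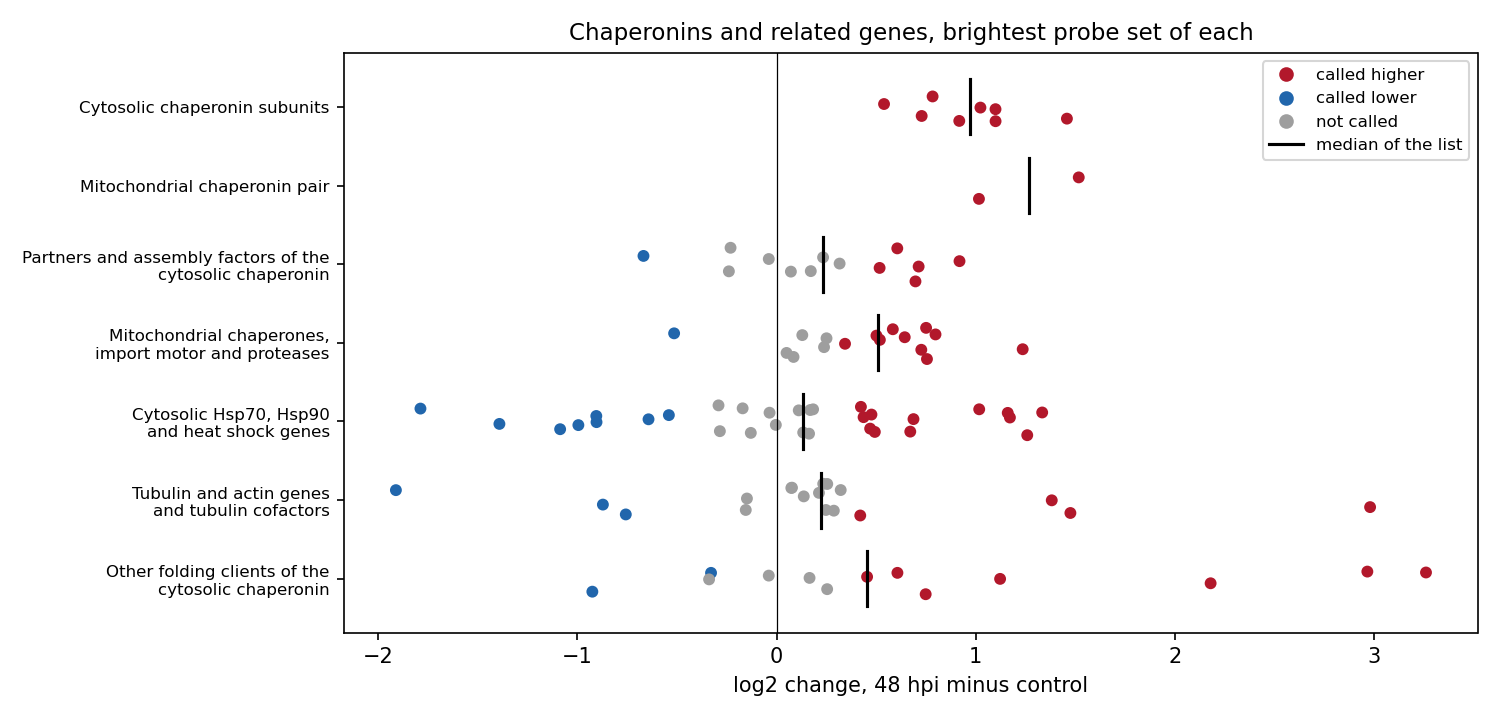
Change in log2 signal, 48 hpi minus control, of every gene of the chaperonin complexes and of the 5 related lists on its brightest probe set, with a bar at the median of each. The chaperonin genes all lie above 0 (0.54 to 1.52), whereas each related list has genes on both sides of 0, with medians between 0.13 and 0.51.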

How the data were processed

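RNA from 3 pools at 48 hpi and 3 control pools was hybridized to Affymetrix whole-genome mouse arrays, 1 pool per array. The deposited values are log2 signals that the authors made with RMA (Expression Console 1.1, Partek 6.5), which corrects background, sets all arrays to 1 distribution and sums probes, so a shift common to all genes is not seen. The table held 45101 rows (2.01 to 14.6 on the log2 scale), of which 64 array controls were left out. Annotation gave 34945 probe sets 1 symbol, 932 several and 9160 none. The 48 hpi minus control difference was fitted by lmFit and eBayes of limma 3.58.1 (R 4.3.3) with p-values adjusted over 45037 probe sets by Benjamini-Hochberg. The procedure was run on simulated data in which far fewer probe sets changed than were called here. That check does not cover data with so many changes. The members and gene lists were chosen with earlier results of these data known. Named were all members, the 3 called genes of smallest adjusted p per list and direction, and Hspa9, Trap1, Lonp1, Clpp, Hsf1, Hspa8, Hsp90ab1, Cct6b, Actb and Actg1. Array medians were 4.88 to 4.91 at 48 hpi and 4.98 to 4.99 in control. The 48 hpi pool numbered 3 correlated at 0.990 and 0.992 with its group, against 0.996 between the others. The table gives no detection calls, and 3 arrays per group limit the precision.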

Additional observations from a re-analysis of the deposited data

How the results depend on the processing

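Across 19 alternatives the 8 cytosolic subunits and the mitochondrial pair were all called higher wherever they kept a probe set, apart from Cct3 and Cct8 without x, s and a probe sets, where 5 of 7 cytosolic genes and 7 of 12 member probe sets were called and the genes were read within background (Cct3 −0.0504, adjusted p = 0.76, Cct8 0.15, adjusted p = 0.39). Member probe sets called lower numbered 1 with the methods' t-test at an unadjusted p and 1 with array weights. The median change of the subunits minus the mean change of the pair, −0.30, was −0.45 with the mean of the gene's probe sets and −0.44 without x, s and a probe sets. Leaving out 1 pool gave 8 to 8 cytosolic genes, 2 to 2 mitochondrial genes, 21 to 23 higher and 0 to 0 lower member probe sets, and −0.44 to −0.22 for that difference. Over the whole table it gave 5210 to 5904 higher and 4051 (without control pool 2) to 5860 lower, and 5 to 8 lower heat shock genes. Whole-table counts were 2948 lower with the methods' t-test once its p-values were adjusted, 8064 higher and 1480 lower with equal hybridization controls, 2971 lower at an adjusted p of 0.01, 3527 higher and 3191 lower with 1 probe set per gene, 3314 and 2960 with the mean of the gene's probe sets, and 4088 higher without x, s and a probe sets. Tubulin and actin genes called higher numbered 7 with the methods' t-test at an unadjusted p and 7 with a common median. With equal hybridization controls the genes called lower numbered 0 partners, 0 mitochondrial, 4 heat shock and 1 tubulin or actin gene, and with the t-test after adjustment 0 mitochondrial and 4 heat shock genes. Apart from these alternatives' own construction, the cause was not tested. The pool numbers are shared between the groups, but same-numbered pools deviated together at r = 0.20, 0.08 and 0.19 and were not treated as pairs. With the replicate number as a block 8 cytosolic genes, 2 mitochondrial genes and 23 member probe sets were called higher and 0 lower, all probe sets together gave 6533 and 7019, and the limma adjusted p was 7.61e-05 for Hspd1 and 0.000425 for Hspe1, while each 48 hpi pool correlated best with the control pool of its own number.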
